A study of Mus musculus with 2 samples.

Results

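The 10 genes described here, Xbp1, Prdm1, Sdc1, Mzb1, Derl3, Sdf2l1, Hspa5, Hsp90b1, Pdia4 and Creld2, belong to the machinery with which plasma cells make and release antibody. They were taken by name from a list of 31053 genes, and all 10 were found, each with at least 20 UMIs (unique molecular identifiers, 1 per captured transcript) over all cells. Their levels were read in each of 20 clusters of aortic leukocytes, with attention to cluster 4, which had the highest share of antibody transcripts, and cluster 18, which carried plasmacytoid dendritic cell genes. Their levels are described without a test.

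All mice were Apoe-/-, which lack apolipoprotein E and develop atherosclerotic plaques, and all ate a western diet during 4 weeks. One group received nt-LNA weekly at 30 mg/kg and the other received saline, and the labels do not say what nt-LNA stands for. The arch and thoracic part of the aorta were digested, live CD45+/CD3- cells were sorted (leukocytes that lack the CD3 protein of T cells), and each group gave 1 droplet-based 3' RNA library. The sources used here do not state how many mice each library holds.

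The nt-LNA library held 4871 cells and the saline library 2742, with 2 cell barcodes shared between them, and together they gave 70206506 UMIs. The deposited counts add up both libraries within each cluster, so no gene could be compared between treatments and no value has a replicate. Levels are given as CPM, a gene's UMIs scaled to counts per 1e6 UMIs of the cluster, with exact Poisson 95% intervals that cover counting error only. Cluster totals ran from 212515 to 12985745 UMIs, and clusters 2, 5, 14 and 16 combined few UMIs per cell with many mitochondrial UMIs (7.24% to 11.2%). A cluster is a sum over its cells, so few cells with much of a transcript and many cells with little of it cannot be told apart.

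Plasma cells are the end stage of B cell differentiation and release antibody at a high rate. Prdm1 (Blimp-1) shuts down the B cell programme, and Xbp1, activated by the sensor IRE1 when unfolded protein builds up in the endoplasmic reticulum (ER), drives genes of folding, quality control and transport. The chaperones and folding enzymes among the 10 genes work in the ER of every cell and are made in larger amounts when secretory load is high. Plasmacytoid dendritic cells, which release type I interferon, are also known for a well-developed ER.

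Cluster 4 held 623 cells deposited as B cells, with 11201 UMIs per cell. It held 9.30% of the nt-LNA library (exact 95% interval 8.50 to 10.2) and 6.20% of the saline library (5.33 to 7.17). Antibody transcripts made up 5.77% of its UMIs, or 646 per cell, against 1.49% in cluster 1, 2.78% in cluster 2, 1.18% in cluster 12 and at most 0.585% in any other cluster. Of 15 plasma cell markers, 4 of which are genes described here, 10 were at least 2-fold higher in cluster 4 than in the mean of the other clusters. Of all genes, 3.77% were. The summed level of the markers was 6512 CPM, against 151 to 1333 CPM elsewhere. Most of that sum came from the antibody genes Jchain (2597 CPM), Igha (1820 CPM) and Ighg1 (511 CPM). It thus largely repeats the antibody share for which cluster 4 was singled out. The 12 mature B cell markers included 6 that were at least 2-fold higher in cluster 4, against all 12 in each of clusters 1, 2 and 12. Every one of the 12 was detected in cluster 4, but also in cluster 3, deposited as NK cells, and cluster 5, deposited as T cells. Their sum was 5876 CPM for cluster 4, 9727 CPM for cluster 1, 15954 CPM for cluster 2 and 6168 CPM for cluster 12. Of 9 markers of B-1 or innate-like B cells, 5 were at least 2-fold higher in cluster 4, and 5 in cluster 2, where 11.9% of all genes were. They summed to 793 CPM in cluster 4, below cluster 2 (1297 CPM), cluster 7 (1024 CPM) and cluster 15 (937 CPM). A part of each of these 3 marker sets was thus high in cluster 4, and the cluster is called by its number.

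Cluster 18 held 59 cells deposited as Macrophages, 39 from the nt-LNA library and 20 from the saline library, with 542811 UMIs in all. All 13 plasmacytoid dendritic cell markers were at least 2-fold higher there, with a summed level of 18961 CPM against 327 to 4791 CPM in the other clusters. Of all genes, 9.57% were that much higher in cluster 18. The macrophage markers summed to 306 CPM, against 28.5 CPM in cluster 4 and up to 5439 CPM in cluster 19. Its 7 UMIs of Prdm1, 3 of Derl3 and 2 of Sdc1 leave wide intervals for these 3 genes.

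The ER stress response element is a promoter sequence through which ATF6, together with NF-Y, switches on ER chaperone genes. It is written CCAAT, 9 bases of any kind, then CCACG, and it was looked for on both strands of RefSeq promoter windows of build GRCm38.p6, from 250 bases before to 50 after each gene's start. Of the 10 genes, 9 had a window that was used and 4 of these held the element. Over all genes, 37 of the 27025 with a window held it (0.137%), or 39 of 32851 windows (0.119%). Mzb1 had no window among those used, which did not cover every chromosome, so the element was not looked for in it. The 250 bases before the start are shown for the 4 genes, 5′ to 3′ on the strand of the gene, because they are the part of the group that shares this sequence; capitals mark the element.
Hspa5: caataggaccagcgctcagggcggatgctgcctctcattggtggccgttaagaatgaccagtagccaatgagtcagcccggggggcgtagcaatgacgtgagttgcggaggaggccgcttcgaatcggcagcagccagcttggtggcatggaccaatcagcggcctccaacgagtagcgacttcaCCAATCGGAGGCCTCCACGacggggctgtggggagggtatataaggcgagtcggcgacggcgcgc
Hsp90b1: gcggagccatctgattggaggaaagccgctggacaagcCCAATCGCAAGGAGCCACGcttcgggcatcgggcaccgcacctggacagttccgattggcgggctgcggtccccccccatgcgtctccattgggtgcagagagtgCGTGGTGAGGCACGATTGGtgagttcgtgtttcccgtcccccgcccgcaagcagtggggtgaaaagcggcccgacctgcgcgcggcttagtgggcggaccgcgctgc
Derl3: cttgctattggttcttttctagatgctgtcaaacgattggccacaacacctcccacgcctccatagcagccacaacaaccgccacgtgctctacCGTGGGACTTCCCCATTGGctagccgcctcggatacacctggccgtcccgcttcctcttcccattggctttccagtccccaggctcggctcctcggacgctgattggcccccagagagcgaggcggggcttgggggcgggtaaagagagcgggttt
Creld2: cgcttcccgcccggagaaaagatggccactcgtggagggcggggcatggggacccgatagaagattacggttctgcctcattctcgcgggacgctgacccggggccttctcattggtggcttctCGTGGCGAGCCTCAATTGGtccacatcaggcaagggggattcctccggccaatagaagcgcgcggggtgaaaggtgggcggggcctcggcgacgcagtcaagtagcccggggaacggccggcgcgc
The Hspa5 stretch is chr2:34771840-34772089 on the plus strand, with its element starting 65 bases before the start and reading along the gene. The Hsp90b1 stretch is chr10:86705445-86705694 on the minus strand and holds the element at 212 bases before the start along the gene and again at 107 bases in the opposite direction. The Derl3 stretch is chr10:75893148-75893397 and the Creld2 stretch chr15:88819396-88819645, both on the plus strand, with the element in the opposite direction at 156 and 126 bases before the start. The windows of Xbp1, Prdm1, Sdc1, Sdf2l1 and Pdia4 held no match, which says only that these letters are not in that window. The separate parts are common, with CCACG in 32.8% and CCAAT in 37.4% of all windows.

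In cluster 4, 5 of the 10 genes were at least 2-fold higher than in the mean of the other 19 clusters: Prdm1, Sdc1, Mzb1, Derl3 and Pdia4. None was at least 2-fold lower. Over the 14202 genes with at least 20 UMIs, 3.77% were that much higher and 40.4% that much lower. The median log2 ratio was 0.72 over the 10 genes and -0.76 over all genes. The genes that stood highest in cluster 4 were not the general ER chaperones. Hspa5 lay below the mean of the other clusters, as did Sdf2l1 except with size factors (1.02 times). Hsp90b1 lay at that mean by CPM, and at 1.08 to 1.42 times it under the 4 other scalings. Ribosomal protein transcripts took 36.4% of the UMIs of cluster 4, the largest share of any cluster. Dividing by size factors instead of totals moved the median of all genes in it by 0.48 on the log2 scale, and 19.3% instead of 8.53% of the genes past 2-fold were then on the higher side, while the same 5 of the 10 genes passed.

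**Figure D1:**
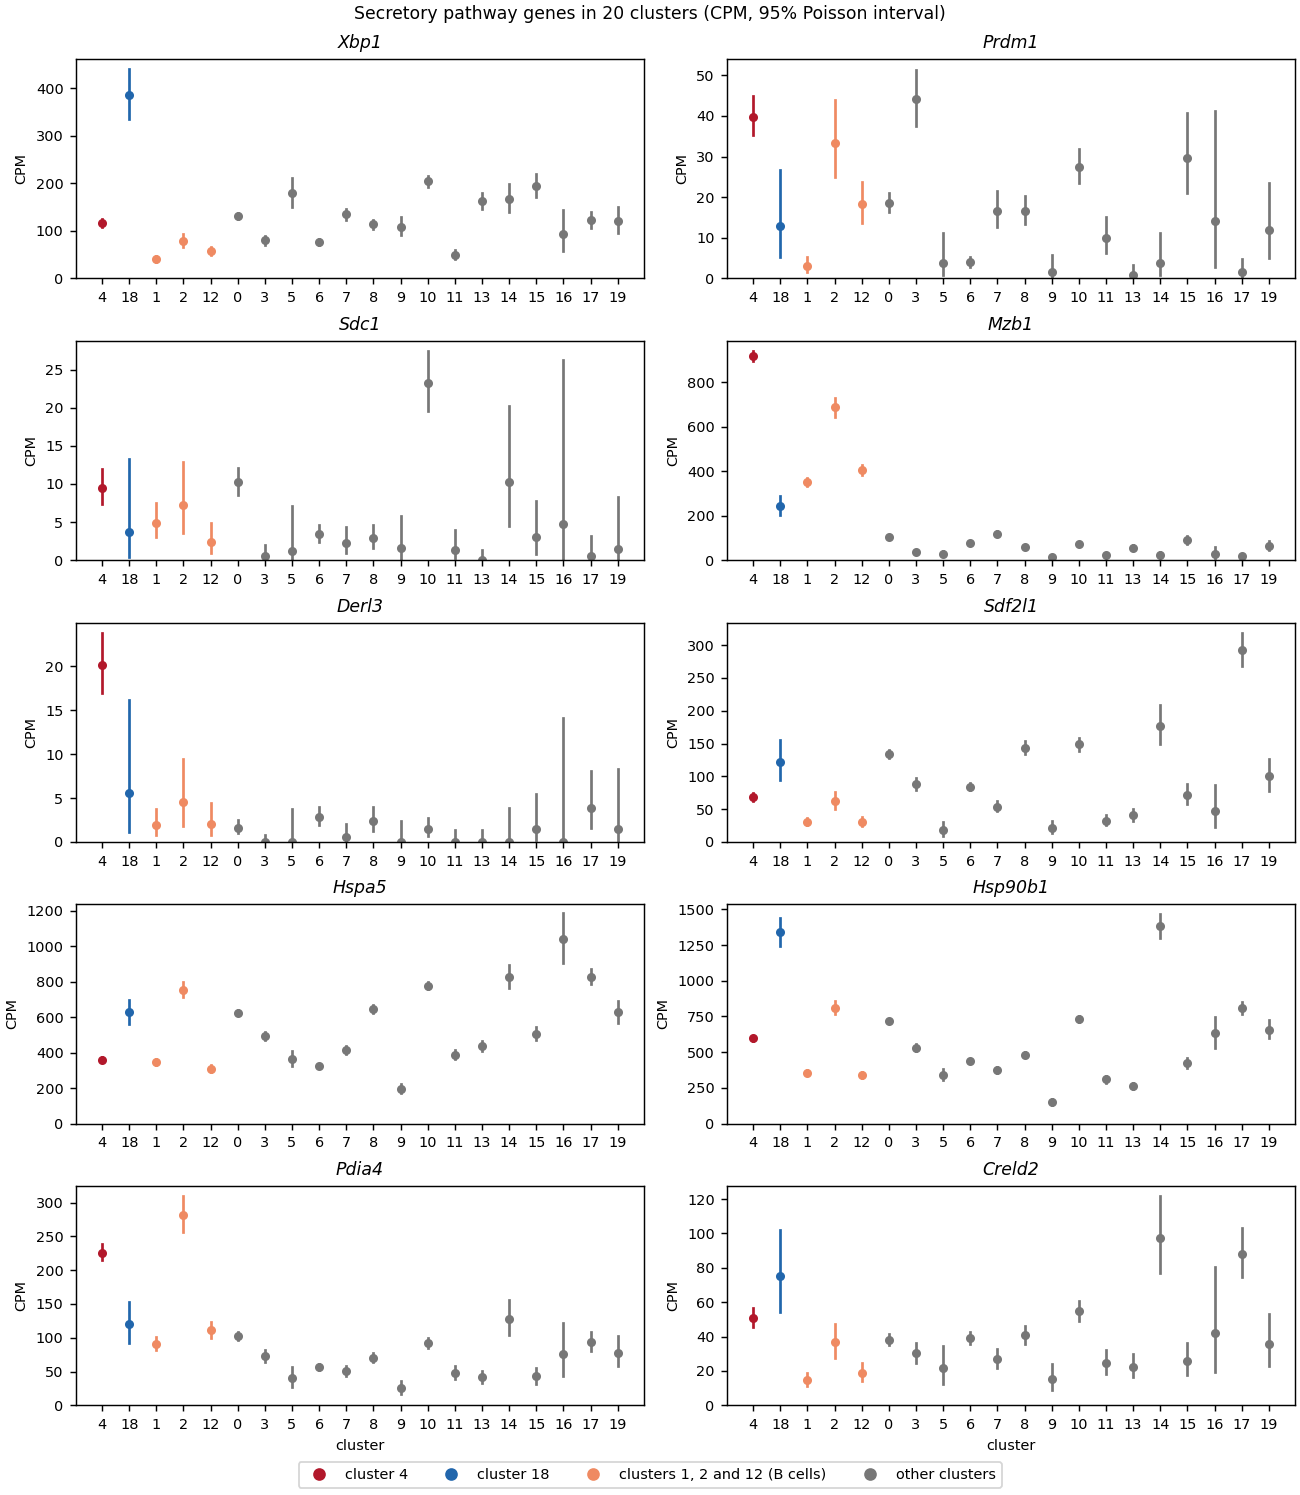
Level of each of the 10 genes in each of the 20 clusters, in CPM on a linear axis from 0, with 1 panel per gene. Points are clusters and bars are exact Poisson 95% intervals; cluster 4 and cluster 18 come first, then the other clusters deposited as B cells (1, 2 and 12), then the rest. Mzb1 and Derl3 are highest in cluster 4 (918 and 20.2 CPM) and Xbp1 in cluster 18 (385 CPM), while Hspa5 and Sdf2l1 are highest in clusters 16 and 17.

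Xbp1, the transcription factor of the IRE1 branch, had 385 CPM in cluster 18 (335 to 441), 117 CPM in cluster 4 (109 to 125) and 40.1 to 204 CPM in the other 18 clusters, with a median of 119 CPM over all 20. Cluster 18 stood apart at the top of this order, 1.89 times cluster 10 (95% interval 1.63 to 2.19), and 16 of the 19 neighbouring pairs in the order did not differ beyond counting error. Cluster 4 ranked 11th. It lay at 0.889 times the mean of the other clusters (0.829 to 0.952), a direction that turns with the scaling, to 1.23 with size factors and 1.12 without mitochondrial and ribosomal transcripts in the total. The counts cover the whole gene and do not separate the spliced, active form of the transcript.

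Within the clusters deposited as B cells, Xbp1 was higher in cluster 4, with 117 CPM, than in cluster 2 (78.6 CPM), cluster 12 (57.9 CPM) and cluster 1 (40.1 CPM). The interval of cluster 4 overlapped with none of these. The ratios were 1.49 (1.23 to 1.82) over cluster 2, 2.02 (1.71 to 2.39) over cluster 12 and 2.91 (2.47 to 3.46) over cluster 1. The genes whose pattern over the 20 clusters was most like that of Xbp1 were Tmem230 and P4ha1 (Pearson r of 0.79 each) and Slc35e3 (0.78). These correlations are over 20 pooled clusters that differ in depth and share both libraries, and they carry no test.

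Prdm1, the repressor that ends the B cell programme, had 39.8 CPM in cluster 4 (278 UMIs) and 12.9 CPM in cluster 18 (7 UMIs). The other clusters ran from 0.918 CPM in cluster 13 to 44.1 CPM in cluster 3, with a median of 13.5 CPM over all 20. Cluster 3, deposited as NK cells, and cluster 4 did not differ beyond counting error (cluster 3 over cluster 4 1.11 times, 0.906 to 1.35). Cluster 4 was 2.78 times the mean of the other clusters (2.46 to 3.13) and cluster 18 was 0.819 times it (0.329 to 1.69). Among the clusters deposited as B cells, cluster 4 had 39.8 CPM and cluster 2 had 33.4 CPM, which overlap, while clusters 12 and 1 had 18.2 and 3.05 CPM. S100a6, Rhob and B4galt5 had the patterns most like it, with r of 0.88, 0.82 and 0.78.

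Sdc1 encodes syndecan-1 (CD138), the surface proteoglycan by which plasma cells are usually recognised, and it was sparse, with 468 UMIs in all. It had 9.46 CPM in cluster 4 (66 UMIs), 3.68 CPM in cluster 18 (2 UMIs) and a median of 2.96 CPM over the clusters, with 0 UMIs in cluster 13, which allows up to 1.38 CPM. The highest level, 23.3 CPM, was in cluster 10, deposited as Macrophages, 2.27 times the next cluster (1.12 to 5.35). Cluster 4 ranked 4th and differed from none of clusters 14, 0 and 2 beyond counting error. It was 2.11 times the mean of the other clusters (1.64 to 2.69), which drops below 2-fold with a pseudocount of 5 CPM (1.53) and against the pooled UMIs of the other clusters (1.49). Galns (r of 0.69), Jchain (0.67) and Slc36a4 (0.66) were most like it.

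Mzb1, an ER protein of B lineage cells that assists antibody assembly and secretion, was highest in cluster 4. It had 918 CPM in cluster 4 (895 to 940), or 10.3 UMIs per cell, and 245 CPM in cluster 18 (205 to 290), or 2.25 per cell. The other B clusters had 687 CPM (cluster 2), 406 CPM (cluster 12) and 352 CPM (cluster 1), and the remaining 15 clusters 13.6 to 119 CPM. The first 5 places in this order were thus the 4 clusters deposited as B cells and cluster 18. Cluster 4 exceeded cluster 2 by 1.34 times (1.25 to 1.43) and the mean of the other 19 by 6.96 times (6.79 to 7.14). Cluster 18 was 1.47 times the mean of the other clusters (1.23 to 1.74) and 6.26 times that of clusters 8 and 17 (5.24 to 7.42). The pattern of Mzb1 was most like those of the light chain genes Iglc2 (0.94) and Iglc3 (0.93) and of Pkig (0.93).

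Derl3, a channel component of ER-associated degradation that is made in secretory cells, was sparse and concentrated in cluster 4. It had 20.2 CPM in cluster 4 (141 of its 250 UMIs), 5.53 CPM in cluster 18 (3 UMIs), at most 4.58 CPM in the others, and 0 UMIs in 7 of them. Cluster 4 was 12.9 times the mean of the other clusters (10.9 to 15.2), a value that falls to 3.84 with a pseudocount of 5 CPM, below the 6.75 of Mzb1, and 3.66 times cluster 18, the next in order (1.23 to 17.9). Per cell this came to 0.226 UMIs in cluster 4. The 2.37-fold value of cluster 18 over the other clusters rests on 3 UMIs and its interval of 0.488 to 6.92 holds 1. Dnase1l3 (0.85), Kctd14 (0.84) and C130026I21Rik (0.84) had the patterns most like it.

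Pdia4, a protein disulfide isomerase that forms and shuffles disulfide bonds, was high in both cluster 4 and cluster 2. It had 226 CPM in cluster 4 (215 to 238), 120 CPM in cluster 18 (92.4 to 153), 282 CPM in cluster 2 (256 to 310) and 25.6 to 128 CPM in the remaining clusters. Cluster 4 lay at 0.802 times the CPM of cluster 2 (0.721 to 0.894), a direction that turns with size factors (1.18), without mitochondrial and ribosomal transcripts in the total (1.05) and with UMIs per cell (2.54 in cluster 4 and 0.648 in cluster 2). Cluster 4 exceeded cluster 14, the next in CPM, by 1.76 times (1.44 to 2.18). Cluster 4 was at 2.65 times the mean of the other clusters (2.52 to 2.79). The genes most like it were Txndc5 (0.87), another thioredoxin-fold enzyme of the ER, the disulfide oxidase gene Ero1lb (0.83) and Tbc1d5 (0.82).

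Hspa5 encodes BiP, the main Hsp70 chaperone of the ER, which binds immunoglobulin heavy chains until light chains join them. It had 359 CPM in cluster 4 (345 to 374) and 628 CPM in cluster 18 (563 to 699), and 196 to 1040 CPM in the other clusters, with a median of 502 CPM over all 20. Cluster 4 ranked 16th of 20 and lay at 0.648 times the mean of the other clusters (0.622 to 0.673). Cluster 1 had 346 CPM, cluster 12 had 310 CPM and cluster 2 had 754 CPM. The ratio of cluster 4 to cluster 1 was 1.04, with an interval (0.973 to 1.11) that holds 1, where antibody transcripts made up 5.77% and 1.49% of the UMIs of these clusters. Under the 4 other scalings this ratio was 1.08 to 1.96, each time beyond counting error. Calr (0.92), Leprot (0.90) and Pdia6 (0.88) were most like it.

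Hsp90b1 encodes GRP94, the Hsp90 chaperone of the ER, whose clients include Toll-like receptors, integrins and immunoglobulins. It had 598 CPM in cluster 4 (580 to 616), 1341 CPM in cluster 18 (1245 to 1442) and 149 to 1384 CPM elsewhere. Cluster 18 came second to cluster 14, from which it did not differ beyond counting error (cluster 14 over cluster 18 1.03, 0.938 to 1.13), and exceeded cluster 17, the next, by 1.66 times (1.52 to 1.81). Cluster 18 was 2.46 times the mean of the other clusters (2.29 to 2.65) and cluster 4 was 1.02 times it (0.994 to 1.06). The value of cluster 4 was 1.08 to 1.42 times under the 4 other scalings. Fkbp2 (0.89), Creld2 (0.88) and Pdia6 (0.88) had the patterns most like it.

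Sdf2l1, a partner of BiP in the ER chaperone complex, had 67.9 CPM in cluster 4 (61.9 to 74.3), 122 CPM in cluster 18 (94.0 to 155) and a highest level of 292 CPM in cluster 17 (268 to 319). Cluster 17 exceeded the next, cluster 14, by 1.65 times (1.37 to 2.01). Cluster 4 was at 0.761 times the mean of the other clusters (0.694 to 0.832), a direction that turns to 1.02 with size factors, and cluster 18 at 1.41 times it (1.09 to 1.79). Creld2 (0.86), Gusb (0.85) and Pdia6 (0.85) were most like it.

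Creld2, an ER-resident protein induced by ER stress, had 50.9 CPM in cluster 4 (355 UMIs), 75.5 CPM in cluster 18 (41 UMIs) and 14.6 to 97.6 CPM in the others. Clusters 14 (97.6 CPM), 17 (87.8 CPM) and 18 led, and none of the 19 neighbouring pairs in the order differed beyond counting error. Cluster 18 was 1.98 times the mean of the other clusters (1.42 to 2.69), just under the 2-fold bound, and cluster 4 was 1.29 times it (1.16 to 1.43). Fkbp2 (0.91), Pdia6 (0.88) and Hsp90b1 (0.88) were most like it.

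**Figure D2:**
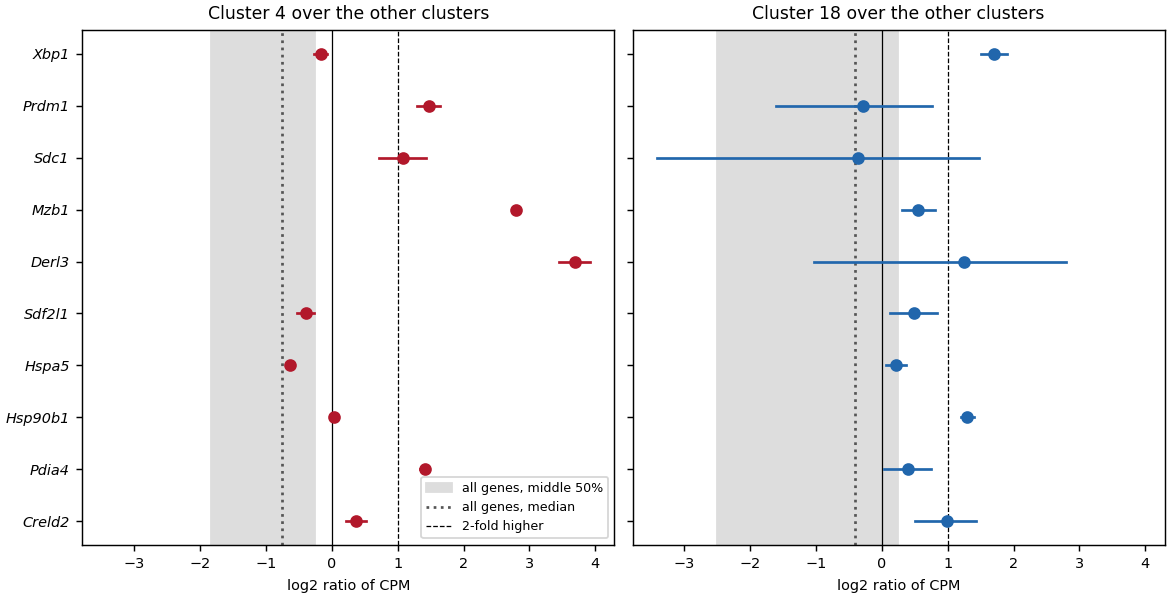
Log2 ratio of CPM in cluster 4 (left) and cluster 18 (right) over the mean of the other 19 clusters for each of the 10 genes, with bars for the 95% interval from the UMIs of the cluster named. The grey band holds the middle 50% of all 14202 genes, the dotted line is their median and the dashed line marks 2-fold higher. In cluster 4 Derl3 (3.69) and Mzb1 (2.80) lie farthest to the right and Hspa5 (-0.63) farthest to the left; in cluster 18 Xbp1 (1.71) and Hsp90b1 (1.30) lie farthest to the right.

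In cluster 18, 3 of the 10 genes were at least 2-fold higher than in the mean of the other clusters (Xbp1, Derl3 and Hsp90b1) and none was at least 2-fold lower. Over all genes 9.57% were that much higher and 36.2% that much lower, where genes without a UMI in this small cluster count as lower. The median log2 ratio was 0.52 over the 10 genes and -0.41 over all genes, or -0.11 over those with a UMI in cluster 18. Apart from Derl3, with its 3 UMIs, this cluster had high levels of the transcription factor Xbp1 and of the chaperone Hsp90b1. For the plasma cell markers Prdm1 and Sdc1 its 7 and 2 UMIs gave ratios of 0.819 (0.329 to 1.69) and 0.771 (0.0934 to 2.79), whose intervals hold 1.

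Set beside each other, clusters 4 and 18 differed in which of the 10 genes they carried. Cluster 4 exceeded cluster 18 beyond counting error in 4 genes: Mzb1 (3.74 times, 3.15 to 4.48), Derl3 (3.66, 1.23 to 17.9), Prdm1 (3.09, 1.48 to 7.76) and Pdia4 (1.89, 1.48 to 2.46). It lay below cluster 18 in 5 genes: Xbp1 (0.304, 0.261 to 0.355), Hsp90b1 (0.446, 0.412 to 0.483), Sdf2l1 (0.559, 0.431 to 0.734), Hspa5 (0.572, 0.511 to 0.642) and Creld2 (0.674, 0.487 to 0.955). For Sdc1 the interval (0.683 to 21.6) holds 1. Over all genes, 5.69% were higher in cluster 4 than in cluster 18 beyond counting error and 26.8% lower. Under each of the 4 other scalings the same 4 genes were higher, and Creld2 was not told apart, nor was Sdf2l1 with size factors.

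Against the mean of clusters 1, 2 and 12, the other clusters deposited as B cells, 3 of the 10 genes were at least 2-fold higher in cluster 4. These were Derl3 (7.15 times, 6.02 to 8.43), Prdm1 (2.19, 1.94 to 2.46) and Creld2 (2.18, 1.96 to 2.42), and Xbp1 (1.99), Sdc1 (1.96) and Mzb1 (1.90) lay just under the bound. Over all genes 3.32% were at least 2-fold higher and 29.5% at least 2-fold lower, and the median log2 ratio was 0.95 over the 10 genes and -0.57 over all genes. Hspa5 had 359 CPM in cluster 4, against a mean of 470 CPM, and this direction turns with size factors (1.05 times) and with UMIs per cell (1.62 times). The count of 3 depends on the scaling: it was 5 without antibody transcripts in the totals, 7 with size factors and 9 with UMIs per cell. Of all genes past 2-fold, 10.1% were on the higher side, against 29.0% with size factors and 48.7% with UMIs per cell.

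Set against these 3 clusters singly, cluster 4 gave different pictures. All 10 genes were higher in cluster 4 than in cluster 12 beyond counting error, where 6.20% of all genes were higher and 39.9% lower. Over cluster 1, 9 were higher, where 10.7% of all genes were higher and 26.1% lower. Hspa5 was the exception by CPM only. Under each of the 4 other scalings all 10 genes were higher than in cluster 1, with Hspa5 at 1.08 to 1.96 times. With UMIs per cell 53.0% of all genes were higher there. Against cluster 2, whose cells had 2296 UMIs each and 10.1% mitochondrial transcripts, 4 were higher in cluster 4 (Xbp1, Mzb1, Derl3 and Creld2), 3 were lower (Hspa5, Hsp90b1 and Pdia4) and 3 were not told apart, where 9.89% of all genes were higher and 39.8% lower. These 3 lower directions depend on the scaling. With UMIs per cell all 10 genes were higher in cluster 4, and so were 68.3% of all genes. Hspa5 then had 4.02 UMIs per cell in cluster 4 and 1.73 in cluster 2, Hsp90b1 6.70 and 1.86, and Pdia4 2.54 and 0.648. With size factors 9 were higher and Hspa5 alone lower (0.699 times). These scalings of the comparisons between single clusters were chosen after seeing the data. The part of low depth and mitochondrial content in the values of cluster 2 was not tested.

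For cluster 18 the nearest comparison is with clusters 8 and 17, deposited as Macrophages, which carried dendritic cell genes. Flt3, the growth factor receptor of dendritic cells, had 105 CPM in cluster 18, 110 CPM in cluster 8 and 136 CPM in cluster 17, against a median of 8.88 CPM over all clusters. Ccr7, of migrating dendritic cells, had 9.21 CPM in cluster 18, against 442 CPM in cluster 8 and 31.3 CPM in cluster 17. Fscn1, of mature ones, had 0 UMIs in cluster 18, against 230 CPM in cluster 8 and 2.80 CPM in cluster 17. The 2 genes of cross-presenting dendritic cells differed in cluster 18: Xcr1 had 0 UMIs there, against 3.05 CPM in cluster 8 and 224 CPM in cluster 17, while Clec9a had 103 CPM in cluster 18, against 9.86 CPM in cluster 8, 163 CPM in cluster 17 and a median of 1.04 CPM over all clusters. Cluster 18 was at least 2-fold higher than the mean of clusters 8 and 17 in 4 of the 10 genes, where 15.7% of 13791 genes were. These were Mzb1 (245 CPM against 39.1), Xbp1 (385 against 118), Hsp90b1 (1341 against 645) and Sdc1, the last with 2 UMIs and an interval of 0.260 to 7.77. Sdf2l1 had 122 CPM in cluster 18 and 218 CPM in the mean of clusters 8 and 17 (0.558 times, 0.432 to 0.710), and Hspa5 had 628 CPM and 737 CPM. With UMIs per cell, where cluster 18 had 9200 against 14872 in cluster 8 and 17887 in cluster 17, only Mzb1 stayed at least 2-fold higher, Prdm1, Derl3, Pdia4 and Creld2 turned to below 1, and 13.7% instead of 34.9% of all genes past 2-fold were on the higher side.

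Other clusters also carried members of the group at high levels, several of them where many genes were high. Cluster 14, deposited as T cells, was at least 2-fold above the mean of the others in 4 genes (Sdc1 with 8 UMIs, Sdf2l1, Hsp90b1 and Creld2), cluster 2 in 3 (Prdm1, Mzb1 and Pdia4) and cluster 17 in 2 (Sdf2l1 and Creld2). Of all genes, 22.1% were that much higher in cluster 14, 11.9% in cluster 2 and 6.24% in cluster 17. Cluster 9, deposited as T cells, was at least 2-fold below the mean of the others in 9 of the 10 genes, where 30.1% of all genes were. Cluster 14 had the highest summed level of the 5 cell cycle markers, 4711 CPM, while they summed to 35.5 CPM in cluster 4 and 269 CPM in cluster 18; Mki67, one of them, had 8.17 CPM in cluster 4 and 60.8 CPM in cluster 18. Of all clusters, 14 had the top Calr (798 CPM), Canx (761 CPM) and Fkbp2 (569 CPM) levels.

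Across the 20 clusters most of the 10 genes fell into 2 sets of like pattern. Mzb1, Derl3 and Pdia4 went together, with r of 0.73 between Mzb1 and Derl3, 0.67 between Mzb1 and Pdia4 and 0.68 between Derl3 and Pdia4. Hspa5, Hsp90b1, Sdf2l1 and Creld2 formed a second set, with r of 0.70 to 0.88, the highest between Hsp90b1 and Creld2. Between the sets Mzb1 had r of -0.10 with Hspa5, -0.07 with Sdf2l1, -0.07 with Creld2 and 0.18 with Hsp90b1. Derl3 had r of 0.06 with Hspa5, 0.36 with Sdf2l1, 0.37 with Creld2 and 0.39 with Hsp90b1. Pdia4 was alike to both sets, with r of 0.42 with Sdf2l1, 0.45 with Hspa5, 0.53 with Creld2 and 0.71 with Hsp90b1, so the sets are not sharply separate. Xbp1 had r of -0.12 with Mzb1 and 0.50 with Creld2. The promoter element cut across these sets, being found for Derl3 of the first and for Hspa5, Hsp90b1 and Creld2 of the second, but not for Pdia4 or Sdf2l1. For Mzb1, which had no window among those used, no result is given.

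**Figure D3:**
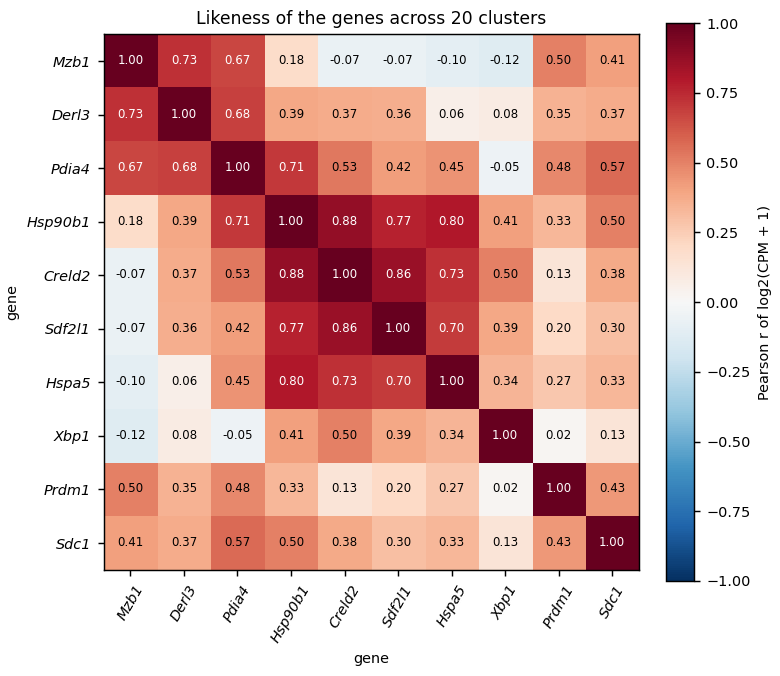
Pearson correlation of log2(CPM + 1) over the 20 clusters between each pair of the 10 genes, from -1 (blue) to 1 (red), with the value written in each square. Mzb1, Derl3 and Pdia4 form a block at the upper left (0.67 to 0.73) and Hsp90b1, Creld2, Sdf2l1 and Hspa5 a block in the middle (0.70 to 0.88), and the squares between the blocks run from near 0 for Mzb1 to 0.71 for Pdia4.

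The antibody genes are the cargo of this machinery, and their share of UMIs is what set cluster 4 apart at the outset. Of 12 antibody genes with at least 20 UMIs, 10 were at least 2-fold higher in cluster 4 than in the mean of the other clusters and none that much lower, with a median log2 ratio of 3.33. Of all genes, 3.77% were that much higher and 40.4% that much lower. Igkc, the kappa light chain, had 37591 CPM in cluster 4, against a mean of 2826 CPM, and Ighm, the IgM heavy chain, 9453 CPM against 1146 CPM. Of the 5 switched heavy chains with at least 20 UMIs, 3 were highest in cluster 4. Igha had 1820 CPM in cluster 4 against a mean of 6.14 CPM, with 74.4 CPM in cluster 6 as the next. Ighg2b had 610 CPM against 3.95 CPM, and Ighg1 511 CPM, 256 times the mean of the others. The other two were highest in cluster 2: cluster 4 had 12.5 CPM of Ighg3, against 38.0 CPM in cluster 2, and 0.717 CPM of Ighg2c, against 19.6 CPM. Jchain, which joins IgA and IgM into polymers, had 2597 CPM in cluster 4 against 42.4 CPM, with 312 CPM in cluster 10 and 205 CPM in cluster 6, above the 57.6 CPM of cluster 2. Whether free RNA or mixed droplets contribute to these was not tested.

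In cluster 18, 9 of the 12 antibody genes were at least 2-fold lower than in the mean of the others, where 36.2% of all genes were. Of the 12, 4 had 0 UMIs. The median log2 ratio was -3.38, or -1.44 when the 4 are set at the most that 0 UMIs allow. The mean of the others includes cluster 4, which had the most antibody transcripts. Against clusters 8 and 17 alone, 3 of the 12 were at least 2-fold higher in cluster 18 and 4 lower, with a median of -0.25, where 15.7% of all genes were higher and 29.2% lower. Jchain had 5.53 CPM (3 UMIs), and Igha and Ighg1 had 0 UMIs, which allows up to 5.53 CPM. Ighm had 1317 CPM against a mean of 1574 CPM and a median of 568 CPM over all clusters, with 533 CPM in cluster 8 and 276 CPM in cluster 17. The 1 antibody gene at least 2-fold above the mean was the lambda chain gene Iglc3, with 717 CPM in cluster 18 (647 to 792) and 690 CPM in cluster 4 (671 to 710), against 24.5 to 669 CPM elsewhere. Iglc3 and Iglc2 are near-identical genes, so reads may be split between them.

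Transcription factors of both stages were present in cluster 4. Of 15 plasma and B cell transcription factors, 5 were at least 2-fold higher and 2 lower than in the mean of the other clusters. Of all genes, 3.77% were that much higher and 40.4% that much lower. Zbtb32, which is also among the markers of B-1 or innate-like B cells, had 81.0 CPM against 7.72 CPM. The coactivator Pou2af1 had 216 CPM against 43.9 CPM and Irf4, which drives plasma cell formation, 47.0 CPM against 22.7 CPM. By CPM, neither set cluster 4 apart from the other clusters deposited as B cells. Irf4 had 76.5 CPM in cluster 1, 72.0 CPM in cluster 2 and 47.5 CPM in cluster 12. Pou2af1 had 203, 198 and 139 CPM in the same order, with cluster 4 at 1.20 times their mean. Against the mean of clusters 1, 2 and 12, 1 of the 15 was at least 2-fold higher (Zbtb32) and 5 were lower, near the 29.5% of all genes that were lower. This turns with UMIs per cell to 5 higher and 1 lower, with the median log2 ratio at 0.42 instead of -0.48. Among the 5 lower ones by CPM were Pax5, the B cell identity factor, with 115 CPM in cluster 4 at 0.464 times the mean of the B clusters, and Ebf1, with 557 CPM at 0.354 times it. In cluster 18, 3 were higher and 8 lower, where 9.57% of all genes were higher and 36.2% lower. Tcf4, the factor that specifies plasmacytoid dendritic cells, had 1251 CPM in cluster 18 against 120 CPM. Irf8 had 2220 CPM in cluster 18 against 241 CPM, and 112 CPM in cluster 4 against 352 CPM. Ikzf3 had 9.21 CPM in cluster 18 against 97.5 CPM.

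The sensors of unfolded protein as a list lay near the median of all genes in cluster 4. Of 14 sensors and factors of the unfolded protein response, 1 was at least 2-fold higher in cluster 4 (Creb3l2, 22.2 CPM) and 4 were lower, with a median log2 ratio of -0.66. With size factors and with UMIs per cell 1 was lower. By CPM, 3.77% of all genes were that much higher and 40.4% that much lower. Ern1, which encodes IRE1 and activates Xbp1, had 3.01 CPM in cluster 4 against a mean of 19.1 CPM, and 18.4 CPM in cluster 18 against 18.3 CPM. Atf6, a sensor that acts on the promoter element, had 47.4 CPM in cluster 4 against 38.6 CPM, and 86.6 CPM in cluster 18 against 36.6 CPM. Its relative Atf6b had 16.3 CPM in cluster 4 against 32.4 CPM, and 71.8 CPM in cluster 18 against 29.5 CPM. In cluster 18, 3 of the 14 were at least 2-fold higher and 2 lower, one of these being Atf5, with 1.84 CPM against 6.01 CPM. There 9.57% of all genes were higher and 36.2% lower. Atf4, the factor downstream of PERK, had 148 CPM in cluster 4 against 180 CPM, and 206 CPM in cluster 18 against 177 CPM.

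Targets of the PERK branch and of the integrated stress response had 5 of 13 genes at least 2-fold higher in cluster 4, where 3.77% of all genes were, and 5 at least 2-fold lower, a share near the 40.4% of all genes. The higher count was 3 with UMIs per cell, and the median log2 ratio of the list was -0.70, against -0.76 over all genes. Atf3 had 569 CPM in cluster 4 against a mean of 281 CPM. Chac1 and Asns, amino acid stress genes, were highest in cluster 4 of all clusters, with cluster 7 next. Chac1 had 4.16 CPM (2.78 to 5.97) against a mean of 0.408 CPM and 3.32 CPM in cluster 7. Asns had 6.16 CPM (4.46 to 8.30) against 1.08 CPM and 4.42 CPM in cluster 7. Whether clusters 4 and 7 differ in these genes was not tested. The cystine transporter gene Slc7a11 had 5.02 CPM against 119 CPM, Nupr1 had 1.29 CPM against 34.2 CPM, and Cebpb 156 CPM against 625 CPM. In cluster 18, where 9.57% of all genes were at least 2-fold higher and 36.2% lower, 1 of the 13 was higher and 8 lower. Of these 8, 4 had 0 UMIs. The median log2 ratio was -1.79 with those 4 ranked lowest and 0.21 with them at the most that 0 UMIs allow, so this list has no readable direction in cluster 18.

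Among 20 other chaperones and folding factors, 1 was at least 2-fold higher in cluster 4 (Fkbp11, 46.0 CPM against 7.13 CPM) and 1 lower, Dnajc3, with 86.8 CPM against 218 CPM. Of all genes, 3.77% were that much higher and 40.4% that much lower. Fkbp11 had 49.8 CPM in cluster 2, its highest level, 20.9 CPM in cluster 12 and 10.6 CPM in cluster 1. In cluster 18, 3 of the 20 were higher (Serp1, Selenos and Cnpy3) and 1 lower, with a median log2 ratio of 0.66. There 9.57% of all genes were higher and 36.2% lower. Serp1, which steadies membrane proteins at the translocon, had 707 CPM in cluster 18 against 263 CPM, and 446 CPM in cluster 4 against 277 CPM. Calr, calreticulin, had 245 CPM in cluster 4 against 378 CPM, and 372 CPM in cluster 18 against 372 CPM.

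Of 13 other disulfide isomerases and oxidases, 2 were at least 2-fold higher in cluster 4 and 4 lower. Of all genes, 3.77% were that much higher and 40.4% that much lower. Txndc5 had 203 CPM in cluster 4 against a mean of 48.4 CPM and 173 CPM in cluster 18, 3.46 times the mean of its others, so it was high in both. Ero1lb, which reoxidises disulfide isomerases, had 83.8 CPM in cluster 4 against 36.9 CPM. Its highest level was 172 CPM in cluster 2, with 79.8 CPM in cluster 1 and 70.0 CPM in cluster 12. Pdia6 had 145 CPM in cluster 4 against 212 CPM, and 306 CPM in cluster 18 against 203 CPM. In cluster 18, 2 of the 13 were higher (Pdia5, with 9 UMIs, and Txndc5) and 1 lower. There 9.57% of all genes were higher and 36.2% lower. Qsox1, a secreted oxidase gene, had 4.01 CPM in cluster 4, 0.211 times the mean of the others. The abundant Erp29 and Pdia3 had 426 CPM and 171 CPM in cluster 4 against means of 291 CPM and 305 CPM.

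The lists for the later steps of secretion had medians above that of all genes in both clusters. Beside the -0.76 of all genes in cluster 4, the medians there were -0.54 for translocation, -0.30 for degradation and -0.48 for transport. Beside the -0.41 of all genes in cluster 18, they were 0.46, 0.27 and 0.38 in the same order. Of 29 translocation and glycosylation genes, 3 were at least 2-fold higher in cluster 18 and none lower, and in cluster 4 none was higher and 1 lower. Sec61b and Sec61g, subunits of the translocation channel, had 1209 CPM and 982 CPM in cluster 18 against means of 465 CPM and 471 CPM, and 465 CPM and 503 CPM in cluster 4 against 504 CPM and 496 CPM. Of 17 degradation genes, 3 were higher in cluster 18 (Herpud1, Edem2 and Selenos) and 1 lower (Fam8a1, 7.37 CPM against 28.1 CPM), and in cluster 4 none was higher and 2 lower (Edem1, 63.9 CPM against 154 CPM, and Fam8a1, 12.8 CPM against 27.9 CPM). Of 27 ER to Golgi transport genes, 3 were higher in cluster 18 and 2 lower, with Sec24d, a coat protein of transport vesicles, at 47.9 CPM against 7.18 CPM, and in cluster 4 1 was higher (Kdelr3, a retrieval receptor gene with 24 UMIs in all, 6.44 times the mean of the others) and 2 lower. Of all genes, 9.57% were at least 2-fold higher in cluster 18, so counts of 3 in lists of this size stand near the background. The share of all genes lower was 36.2% in cluster 18. In cluster 4 it was 40.4%, with 3.77% higher. The medians of cluster 4 move towards 0 with size factors, to 0.02 for the chaperones, 0.19 for degradation and -0.03 for transport.

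Of 14 survival receptors and adhesion genes, 2 were at least 2-fold higher in cluster 4 and 2 lower. The higher count was 4 with size factors, without mitochondrial and ribosomal transcripts in the total and with UMIs per cell. By CPM, 3.77% of all genes were that much higher and 40.4% that much lower. Tnfrsf17, which encodes BCMA, the receptor on which long-lived plasma cells depend, had 9.74 CPM in cluster 4 (7.57 to 12.4) against a mean of 0.168 CPM, and 0 UMIs in cluster 18, which allows up to 5.53 CPM. Tnfrsf13b, which encodes its relative TACI, had 221 CPM in cluster 18 against a mean of 60.7 CPM. Cd28 had 13.3 CPM in cluster 4 against 169 CPM, and Il6st had 9.21 CPM in cluster 18 against 50.4 CPM. Of 19 genes of plasmacytoid identity and secretion, 18 were at least 2-fold higher in cluster 18, where they describe the cluster, and 1 in cluster 4, with 13 lower. Of all genes, 9.57% were that much higher in cluster 18. Siglech had 2200 CPM in cluster 18 against a mean of 3.83 CPM, Klk1 910 CPM against 0.853 CPM and Bst2 5011 CPM against 256 CPM.

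**Figure D4:**
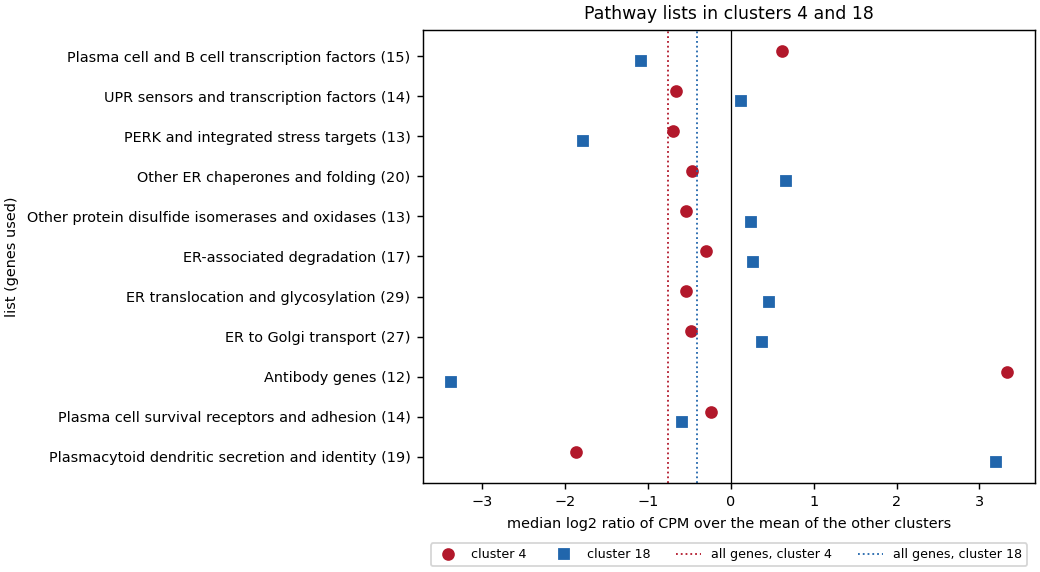
Median log2 ratio of CPM over the mean of the other 19 clusters for each list of genes, with the number of genes used in brackets, in cluster 4 (circles) and cluster 18 (squares). Dotted lines are the medians of all genes in the same 2 comparisons (-0.76 and -0.41), and a gene with 0 UMIs is ranked lowest. The antibody genes lie at 3.33 in cluster 4 and -3.38 in cluster 18, where the mean of the others includes cluster 4 and the median against clusters 8 and 17 alone is -0.25. The lists of chaperones, translocation and transport lie to the left of 0 in cluster 4, where the chaperones move to 0.02 with size factors, and to the right of it in cluster 18.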

How the data were processed

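Single-cell 3' RNA-seq was made on 1 nt-LNA and 1 saline library, and the submitters' processing notes list Cell Ranger 2.1.1, Seurat and build mm9. No source used here states the cell filters, the clustering settings or any doublet removal. Per the file headers, the deposited counts hold UMIs of each gene added up within 20 clusters, both libraries together, and a deposited table gives each cell's cluster and cell type name. A deposited log-scale table was not used.

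CPM were computed here as each deposited count over the total of its cluster. A ratio is the CPM of a cluster over the mean CPM of its comparison clusters, over genes with at least 20 UMIs, and at least 2-fold counts as higher or lower. Intervals of a ratio to a mean carry only the counting error of the cluster named, ratios of single clusters have exact conditional intervals and shares exact Clopper-Pearson intervals, all at 95%. A count of 0 allows up to 3 UMIs. These intervals cover counting error only, without animals or libraries, and no p-value was computed. Likeness is Pearson's r of log2(CPM + 1), and the 3 most alike genes were taken among those with at least 200 UMIs.

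The members, gene lists, markers and the choice of clusters 8 and 17 were made with earlier results of these data known. Besides the 10 genes, genes were named from a rule that gives, per list, the 2 with the largest absolute log2 ratio in cluster 4, the 2 in cluster 18 and the 2 with the most UMIs, the 3 most alike genes and a fixed set (Jchain, Igha, Ighm, Igkc, Irf4, Pax5, Tnfrsf17, Ern1, Atf6, Siglech, Tcf4, Mki67); not every gene it gives is described. Herpud1, Cnpy3, Chac1, Asns, Creb3l2, Canx, Ighg2c, Ighg3, Flt3, Ccr7, Fscn1, Xcr1 and Clec9a were added after values were seen. Of the listed symbols, Ero1a, Ero1b and Ufd1l were not in the table, which has Ero1l, Ero1lb and Ufd1. Promoter windows are from RefSeq on GRCm38.p6, matched by symbol, and were not compared with mm9 coordinates. For the 10 genes, windows on chromosome 18 were not used, while the share of all genes with the element was counted over all windows. Calculations used scipy 1.17.1, pandas 2.3.3 and numpy 2.4.6 in Python 3.11.15, figures matplotlib 3.10.9, and the ratios were tested on simulated data.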

Additional observations from a re-analysis of the deposited data

How the results depend on the processing

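With a fold of 3, the number of the 10 genes counted as higher was 2 in cluster 4 and 1 in cluster 18 over the other clusters, 1 in cluster 4 over the other B clusters and 2 in cluster 18 over clusters 8 and 17. Against the median instead of the mean of the other clusters, it was 5 in cluster 18. In cluster 4 over the other B clusters it was 7 with size factors, 5 without antibody transcripts in the totals, 6 without mitochondrial and ribosomal transcripts, 9 with UMIs per cell, 1 with a pseudocount of 5 CPM and 7 with a fold of 1.5. In cluster 18 over clusters 8 and 17 it was 2 with size factors and 1 with UMIs per cell. The cause of these changes was not tested. The count of 5 in cluster 4 was 4, without Sdc1, with a pseudocount of 5 CPM and against pooled UMIs, and Mzb1 exceeded Derl3 with that pseudocount and against the median of the other clusters (14.7 against 13.6 times). The counts of 5 in cluster 4 and 3 in cluster 18 over all other clusters stayed within 1.5 times under the 4 other scalings, the pseudocount, pooled counts, the fold of 1.5 and without clusters 2, 5, 14 and 16. Within this bound the count in cluster 18 was 2, without Derl3, with size factors, UMIs per cell, the pseudocount and pooled counts. It was 4, with Creld2 added, at the fold of 1.5 and without those 4 clusters. The share of all genes at least 2-fold higher in cluster 4 was 5.79% with no filter on UMIs and 2.25% with at least 200 UMIs. Without the cells of those 4 clusters, the nt-LNA over the saline share came to 1.76 for cluster 4 (interval 1.47 to 2.11) and 1.29 for cluster 18 (0.732 to 2.33). Of 80 single ratios of the genes over the alternatives, 52 left their counting interval in cluster 4 and 9 in cluster 18, and none past 2-fold changed direction. No paired analysis was possible because each treatment has 1 library. Depth limits Prdm1, Sdc1 and Derl3 in cluster 18.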
